A study of Mus musculus with 18 samples.

Results

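The interferon-stimulated genes Rsad2, Isg15, Ifit1, Ifit2, Ifit3, Irf7, Oasl2, Usp18 and Ifi44 were followed across sorted mouse mammary tumor cells and sorted normal mammary cells. The 9 genes were taken by name, and a gene was measured where the array annotation ties a probe set to it alone. That held for 7 of the 9 genes, with 9 probe sets, out of 18193 genes and 45101 probe sets in all. Isg15 shares its probe set with another gene and is not given a value here, and no probe set is annotated to Ifi44. Rsad2 has 3 probe sets and each of the other 6 genes has 1. All 7 genes passed the filter on low levels in every comparison.

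RNA levels came from 18 Affymetrix arrays of 1 colour. From each of 3 mouse mammary tumors (1, 2 and 7), 4 populations were sorted on staining for CD29 (integrin beta1) and CD24: CD29HCD24H, CD29HCD24L, CD29LCD24H and CD29LCD24L, where H is high and L low, with 1 array per tumor and population (n = 3 each). Normal mammary epithelial cells gave 2 arrays of CD29HCD24P cells (CD29 high, CD24 positive), 2 of CD29PCD24H cells (CD29 positive, CD24 high) and 1 of CD24L cells (CD24 low), and a further array carried commercial reference RNA. The study asked what sets tumor-initiating cells apart, and it assigned that property to the CD29HCD24H cells, called double high here. The labels put tumors 1 and 2 in transplant generation 1 and give no generation for tumor 7. They state no genotype, strain or age for any group. The tumors are known from the study to derive from p53-null mammary epithelium. The labels do not say that the normal preparations, numbered 1 and 2, came from separate animals, so p-values on them measure the spread between these samples, which may be technical.

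Interferons are secreted when cells sense foreign or misplaced nucleic acid, and they act through surface receptors and JAK kinases. The signal ends at interferon-stimulated response elements in promoters and switches on a common set of genes. Some of these genes block viruses directly, some amplify the signal and some shut it off, and unstimulated cells carry a low basal level of many of them.

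Signals are linear intensities, scaled by the authors so that the trimmed mean was equal on all arrays. Array medians lay between 71.6 and 104.2 signal units, so values near these are close to the middle of all probe sets. Signals of different probe sets are not compared with each other. By markers the normal populations were of basal and luminal type, while their labels name only the gates. The summed signal of 9 basal epithelial genes was 133655 to 135647 on the CD29HCD24P arrays and 2221 to 2582 on the CD29PCD24H arrays. That of 9 luminal genes was 37188 to 37456 and 133053 to 148629. In tumors, RNA of both sort markers (Itgb1 and Cd24a) was lower in CD29HCD24H than in CD29LCD24H cells and higher than in CD29LCD24L cells. Against CD29HCD24L cells 1 was higher and 1 lower, and none of these differences passed the test. On the CD24L array 11 fibroblast genes summed to 289680 and the luminal genes to 1989, which goes against its epithelial label. The actin 3'/5' signal ratio, a measure of RNA quality and amplification, was 14.4 to 99.3 on the tumor arrays and 3.08 to 24.7 on the 4 other normal arrays. In bulk samples, fewer cells of a type and less RNA per cell cannot be told apart.

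Promoter sequences are shown because the response element marks the genes that the pathway addresses directly. In the 250 bases before the gene start (RefSeq, GRCm38.p6), the pattern GAAANNGAAA, searched on both strands (TTTCNNTTTC on the other), was found in 4 of the 8 listed genes present in the promoter table: Rsad2 with 1 match, Ifit1 and Ifit3 with 2 each and Isg15 with 3 that overlap each other. Among all windows of this length 2.98% hold the pattern, or 3.46% of genes. No match was found in the windows of Ifit2, Irf7, Oasl2 and Ifi44, which says only that these letters are not there. The stretches around the matches of the 3 measured genes follow, 5′ to 3′ on the gene's strand, with the matches in capitals. They lie at chr12:26456533-26456602 on the minus strand for Rsad2, at chr19:34640755-34640843 on the plus strand for Ifit1 and at chr19:34583343-34583446 on the plus strand for Ifit3, and the first match begins 120, 104 and 156 bases before the gene start.
Rsad2: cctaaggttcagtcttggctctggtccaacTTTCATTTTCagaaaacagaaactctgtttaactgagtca
Ifit1: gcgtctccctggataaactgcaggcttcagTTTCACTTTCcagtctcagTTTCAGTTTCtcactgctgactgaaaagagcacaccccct
Ifit3: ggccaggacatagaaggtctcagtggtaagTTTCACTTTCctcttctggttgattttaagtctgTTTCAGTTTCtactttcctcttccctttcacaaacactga
The 2 Ifit genes have the same letters in both of their matches, TTTCACTTTC and TTTCAGTTTC, at different spacings. Ifit2, Ifit3 and Ifit1 lie near each other on chromosome 19, and Ifit3 has a near-identical neighbour, Ifit3b. Whether the Ifit3 probe set tells them apart was not tested.

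In normal cells Rsad2, Ifit1, Ifit3, Oasl2 and Usp18 were lower in basal-type CD29HCD24P cells than in luminal-type CD29PCD24H cells, Ifit2 was higher, and Irf7 did not pass the test. Of the 7 measured genes 5 were thus lower and 1 higher (limma, Benjamini-Hochberg adjusted p below 0.05), where 28.9% of the 10916 genes tested were called, 14.6% lower and 14.3% higher. The median difference of the 7 genes was −1.01 on the log2(signal + 32) scale used throughout, against −0.02 over all genes. This scale understates the fold change of dim genes. With 2 arrays a side, the signals of 65.3% of all genes tested did not overlap between the populations, 33.6% lower and 31.8% higher in CD29HCD24P cells, so a lack of overlap is common here.

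Rsad2 encodes viperin, an antiviral radical SAM enzyme of the endoplasmic reticulum. On its brightest probe set, which stands for the gene in the tests, CD29HCD24P cells gave 294 and 308 signal units (preparations 1 and 2) and CD29PCD24H cells 3448 and 5024. Both basal-type values were thus far below both luminal-type values, and also below the CD24L array at 1407. The difference was −3.65 ± 0.27 (SE, n = 2 and 2, adjusted p = 1.28e-05), a 12.6-fold lower level. The second probe set read 46.8 and 56.6 against 446 and 418, and the third 42.3 and 31.9 against 103 and 109. All 3 probe sets thus separated the populations in the same direction. Fitted probe set by probe set, the differences were −3.65, −2.47 and −0.997, and the last lay close to the threshold (adjusted p = 0.0498).

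**Figure D1:**
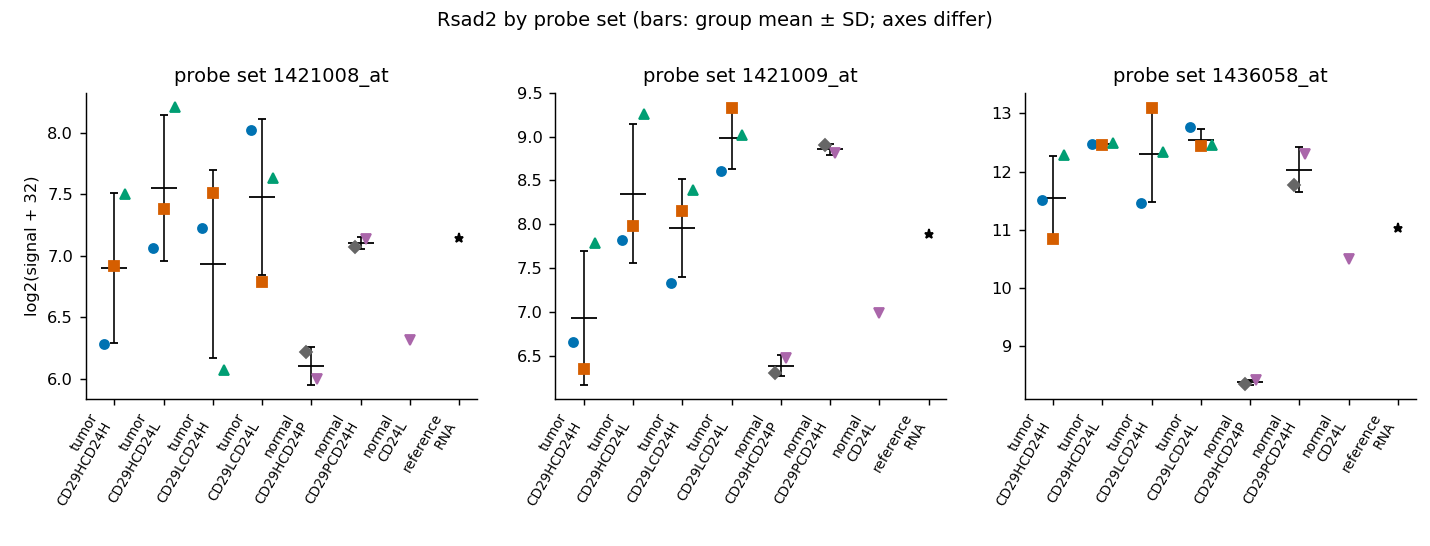
Each panel plots 1 probe set of Rsad2, as log2(signal + 32) on the vertical axis against the sorted population; circles, squares and triangles are tumors 1, 2 and 7, diamonds and inverted triangles normal preparations 1 and 2, the star the reference RNA, and bars the group mean ± SD. On all 3 probe sets the normal CD29HCD24P arrays lie below the normal CD29PCD24H arrays, while their distance to the tumor arrays differs between probe sets.

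The Ifit genes encode proteins that bind viral RNA or block its translation. Ifit1 signals were 432 and 259 in CD29HCD24P cells and 958 and 1542 in CD29PCD24H cells, and Ifit3, which stabilises the Ifit1 protein, read 67.2 and 50.6 against 133 and 152. Neither gene overlapped between the populations, although the Ifit3 values were near the array medians. Ifit1 fell by 1.77 ± 0.33 (adjusted p = 0.00309) and Ifit3 by 0.95 ± 0.29 (adjusted p = 0.0379). Ifit2 went the other way, with 220 and 256 in CD29HCD24P cells against 83.6 and 110 in CD29PCD24H cells, a rise of 1.07 ± 0.28 (adjusted p = 0.0194). Neighbours on the chromosome thus differed in direction within the same arrays.

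Oasl2 encodes an oligoadenylate synthetase-like protein and Usp18 the protease that removes ISG15 from proteins and dampens receptor signalling. Oasl2 signals were 202 and 172 in CD29HCD24P cells and 402 and 412 in CD29PCD24H cells, and Usp18 signals were 129 and 237 against 776 and 503. Neither gene overlapped between the populations. The differences were −1.01 ± 0.26 for Oasl2 (adjusted p = 0.0159) and −1.66 ± 0.34 for Usp18 (adjusted p = 0.00492). Irf7, the transcription factor that amplifies type I interferon production, overlapped, with 204 and 246 against 223 and 336, and its difference of −0.26 ± 0.29 did not pass the test (adjusted p = 0.556). With the preparation as a block the same 6 genes passed, where 31.4% of all genes were called.

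Without either CD29HCD24P array, when the spread comes from the CD29PCD24H arrays alone and the lone array is assumed to vary like them, 3 of the 7 genes passed (Rsad2, Ifit1 and Usp18). The differences of the other 3 stayed near their values when any 1 array was left out, from 0.92 to 1.22 for Ifit2, from −1.11 to −0.91 for Oasl2 and from −1.08 to −0.81 for Ifit3. When all 17 sorted-cell arrays shared 1 estimate of the spread, Rsad2 passed (adjusted p = 0.000317) and the other 6 did not.

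**Figure D2:**
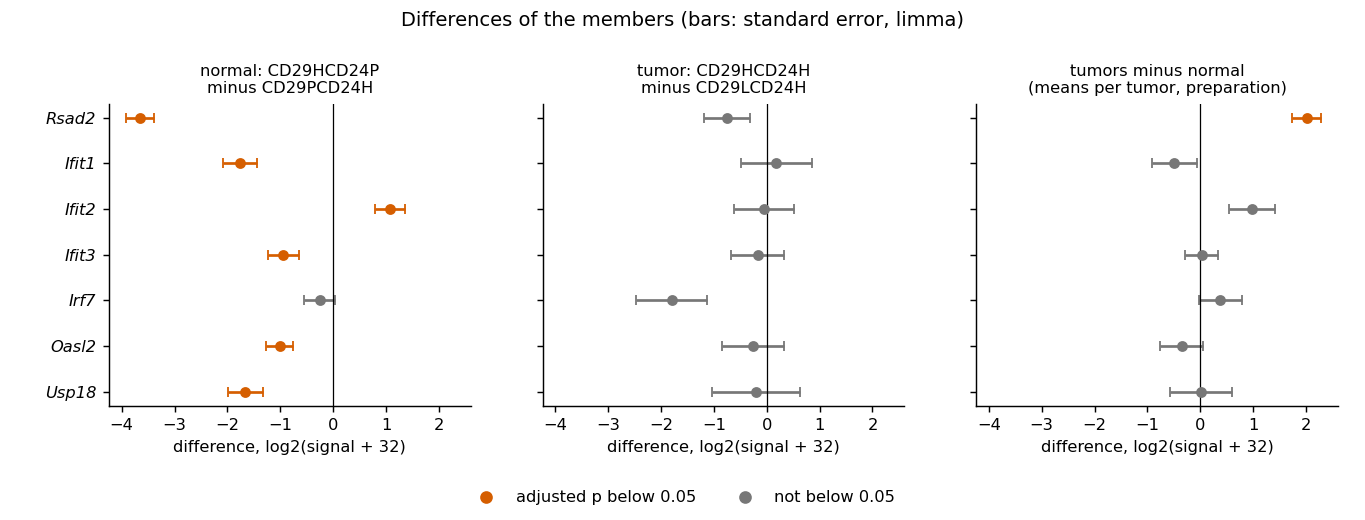
Points are the differences of the 7 genes on the log2(signal + 32) scale (horizontal axis) with limma standard errors, for normal CD29HCD24P minus CD29PCD24H cells, tumor CD29HCD24H minus CD29LCD24H cells, and tumors minus normal; orange marks an adjusted p below 0.05. Orange points number 6 in the first panel, 0 in the second and 1 in the third.

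Many other genes of the pathway were also lower in normal CD29HCD24P cells. Of 39 other interferon-stimulated genes tested 19 were lower and 4 higher in CD29HCD24P cells, with a median of −0.90, beside 14.6% of all genes lower and 14.3% higher. The lower genes were Cmpk2, the neighbour of Rsad2 on chromosome 12 (fell by 2.81 ± 0.33, adjusted p = 0.000189), and Trim30a, Ifi35, Oas2, Herc6, Ifi204, Phf11d, Parp14, Isg20, Slfn2, Lgals3bp, Oas1a, Samd9l, Xaf1, Nmi, Tor3a, Parp9, Rtp4 and Parp12. The 4 higher genes were Pml, Lgals9, Ifitm1 and Ifitm3, the last by 1.54 ± 0.40 (adjusted p = 0.0178).

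Of 11 nucleic acid sensors and adaptors 4 were lower (Ifih1, Tlr3, Tbk1 and Zbp1) and 0 higher, beside 14.6% of all genes lower. Ifih1, the sensor MDA5, read 390.5 to 688 in CD29HCD24P cells and 4414 to 6395 in CD29PCD24H cells, with a difference of −3.28 ± 0.32 (adjusted p = 6.1e-05). Among 11 GTPases and chemokines typical of interferon-gamma 7 were lower: Gbp2 (−2.44), Gbp3, Gbp6, Irgm2, Cxcl9 (−2.62), Cxcl10 (−1.63) and Cxcl11. Of 12 genes of class I antigen presentation 7 were lower: the peptide transporter genes Tap1 and Tap2 (−2.17), Tapbp, the immunoproteasome subunits Psmb8 (−1.92), Psmb9 (−1.82) and Psmb10, and B2m (−0.82). Of 6 other interferon regulatory factors Irf8 was lower (−1.51).

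Of 11 receptor and signalling genes 3 were lower, Jak2, Il10rb and Ifnlr1, the lambda interferon receptor chain (−0.88 ± 0.29, adjusted p = 0.0464), beside 14.6% of all genes lower. The type I receptor chains did not pass the test (Ifnar1 0.33, Ifnar2 −0.61). Of 17 listed ligand genes 10 are on the array and 1, Ifnz, passed the filter on low levels, with 79.5 to 89.6 against 170 to 205 signal units. Ifnb1 did not exceed 38.8 on the normal epithelial arrays. Of 14 negative regulators tested 2 were higher, Socs2 and Samhd1, and 0 lower, a share of higher genes like that of all genes (14.3%).

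Markers of white blood cells differed between the same arrays. The 16 macrophage and myeloid genes summed to 5353 to 6071 on the CD29HCD24P arrays and 17144 to 20625 on the CD29PCD24H arrays, and 12 lymphocyte genes to 600.4 to 694 and 1185 to 1488. Most of the difference in the myeloid sum was Cd14, with 906 to 1089 against 10484 to 12377. The macrophage genes C1qb and Csf1r were higher in CD29HCD24P cells, C1qa read 2.83 to 18.8 on the CD29PCD24H arrays, and no marker was at 0. Ptprc, the pan-leukocyte CD45, was lower in CD29HCD24P cells (138 to 226.5 against 573 to 728). The part of such cells in the difference was not tested. The actin ratio was 7.09 and 3.08 on the CD29HCD24P arrays and 24.7 and 6.33 on the CD29PCD24H arrays, and its part was not tested either.

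Among the tumor populations none of the 7 genes passed the test. The double high cells had lower mean levels than the other populations together for all 7 genes, beside 49.6% of all genes. The median difference was −0.53 against 0.00 over all genes. In that comparison 0 of 10916 genes were called (0%), so the absence of calls is not particular to these genes. At an unadjusted p below 0.05 limma gave 2 of the 7 (Irf7 and Rsad2) and 6.95% of all genes. With the tumor as a block, 0 of 7 passed where 0.779% of all genes were called.

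Irf7 signals in double high cells were 268, 18.4 and 266 (tumors 1, 2 and 7), and in the other populations 430, 469 and 326 (CD29HCD24L), 426, 310 and 1185 (CD29LCD24H) and 504, 238 and 492 (CD29LCD24L). In each tumor the double high array was the lowest of the 4, which held for 3.28% of all genes, and the value of tumor 2 lay far below every other array. The difference was −1.52 ± 0.54 (adjusted p = 0.553), or ± 0.40 with the tumor as a block (adjusted p = 0.0729). It was −0.66 without the double high array of tumor 2.

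Rsad2 signals in double high cells were 2886, 1803 and 4978, and in the other populations 5670, 5601 and 5712 (CD29HCD24L), 2780, 8694 and 5169 (CD29LCD24H) and 6902, 5495 and 5613 (CD29LCD24L). The CD29HCD24L arrays agreed closely, with a mean of 12.48 ± 0.01 (SD, n = 3) on the log2 scale against 11.55 ± 0.73 in double high cells. All 3 double high values lay below those of both CD24 low populations, as for 1.69% of all genes. They overlapped with CD29LCD24H, which held the highest tumor value. On the second probe set double high cells read 68.5, 49.3 and 189, the lowest of the 4 populations in each tumor, with a difference from the rest of −1.50 ± 0.40 (adjusted p = 0.516). On the third they read 45.8, 88.9 and 149, the lowest in tumor 1 but not in tumors 2 and 7, with a difference of −0.42 ± 0.41 (adjusted p = 0.969). On the brightest probe set the difference from the rest was −0.89 ± 0.36 (adjusted p = 0.633, with the block 0.180) and −0.43 without tumor 2.

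Ifit1 signals in double high cells were 406, 93.4 and 445, in CD29HCD24L cells 376, 521 and 1991, in CD29LCD24H cells 360, 141 and 231, and in CD29LCD24L cells 1427, 457 and 965. The 4 lowest values were thus in the CD24 high populations, and 2 of the 3 highest in CD29LCD24L cells. The difference of double high cells from CD29LCD24L was −1.59 ± 0.68 (adjusted p = 0.756, with the block 0.121), and from CD29LCD24H cells it was 0.18 ± 0.68. Ifit3 signals in double high cells were 21.8, 38.0 and 211, so this population held both the lowest and the highest of the 12 tumor values, and the others ranged from 61.1 to 160. Its difference from the rest was −0.53 ± 0.41, and −0.10 without the double high array of tumor 1.

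Ifit2, Usp18 and Oasl2 varied more by tumor than by population. Ifit2 read 150 to 202 on the 4 arrays of tumor 2, 333 to 520 in tumor 1 and 337 to 591 in tumor 7, with no overlap between tumor 2 and the others, as for 4.26% of all genes. Usp18 read 85.6 to 360.3 in tumor 2, 317 to 492 in tumor 7 and 591 to 957 in tumor 1. For Usp18 tumor 1 stood above both other tumors on every array, as for 4.05% of all genes. Oasl2 read 76.3 to 246 in tumor 2, 122 to 325 in tumor 7 and 280.3 to 409 in tumor 1.

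The tumor of origin held 87.1% of the sum of squares over the 12 arrays for Ifit2, 79.2% for Usp18 and 61.0% for Oasl2, against a median of 38.5% over all genes tested. It held 27.0% for Ifit1, 26.3% for Irf7, 18.8% for Ifit3 and 5.49% for Rsad2. These shares describe 3 tumors and were not tested. The differences of double high cells from the rest were −0.09 for Ifit2, −0.31 for Usp18 and −0.43 for Oasl2. Without the double high array of tumor 2 the first 2 turned positive (0.28 and 0.39) and Oasl2 was −0.0042. Without that of tumor 1 Oasl2 was −1.02.

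**Figure D3:**
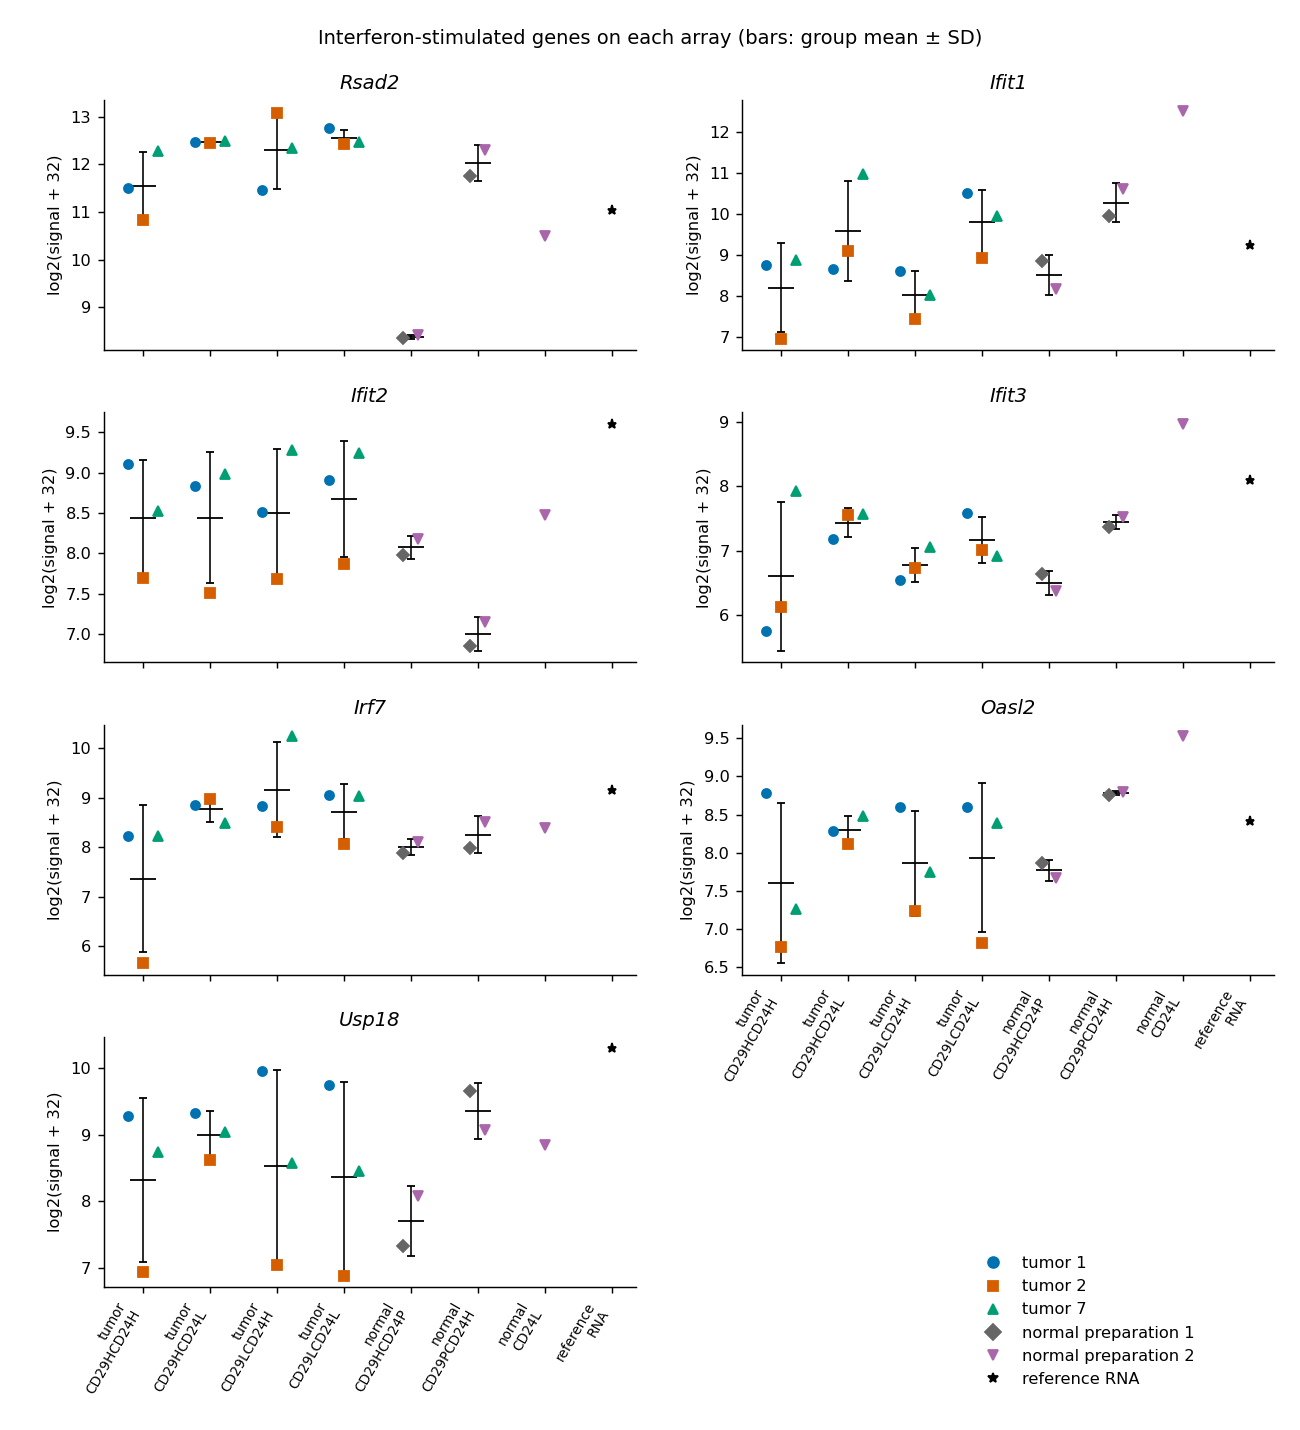
Each panel plots 1 gene as log2(signal + 32) on the vertical axis, with its brightest probe set, against the sorted population; circles, squares and triangles are tumors 1, 2 and 7, diamonds and inverted triangles normal preparations 1 and 2, the star the reference RNA, and bars the group mean ± SD. The squares of tumor 2 are the lowest of the 3 tumors in all 4 populations for Ifit2, Oasl2 and Usp18, while Rsad2 has no such order.

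No member passed against any single population. Against CD29HCD24L cells 6 of the 7 genes were lower in double high cells with a median of −0.84, and 0 passed where 2.17% of all genes were called (at an unadjusted p below 0.05, 0 of 7 and 8.49% of all genes). Against CD29LCD24H cells the median was −0.20 and 0% of all genes were called (at an unadjusted p below 0.05, 1 of 7 and 2.63% of all genes), and it was 0.17 without the double high array of tumor 2. Against CD29LCD24L cells all 7 were lower with a median of −0.57, and 0.0366% of all genes were called (at an unadjusted p below 0.05, 2 of 7 and 6.19% of all genes). With the tumor as a block 0 of 7 passed in each, where 4.93%, 0.00916% and 0.531% of all genes were called. Over all genes 45.7%, 52.7% and 48.7% of the differences were negative in these comparisons, in the same order, with medians of 0.05, −0.03 and 0.01. These comparisons share the double high arrays.

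On the array of double high cells from tumor 2 all 7 genes were below their own means, and the mean of the 7 was the lowest of 17 arrays (−1.48). This array and the CD29LCD24L array of tumor 2 had the lowest actin ratios of the tumor arrays, 23.2 and 14.4. Without both, the median difference of double high cells from CD29LCD24L cells was −0.47. Marker sums of other cell types moved with the populations: the myeloid genes summed to 27285 to 37502 in double high cells and 41241 to 103611 in CD29LCD24L cells, the lymphocyte genes to 957 to 1387 and 4584 to 14174. The fibroblast genes summed to 19056 to 46339 in double high and 182863 to 227086 in CD29HCD24L cells. Their part in these differences was not tested.

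**Figure D4:**
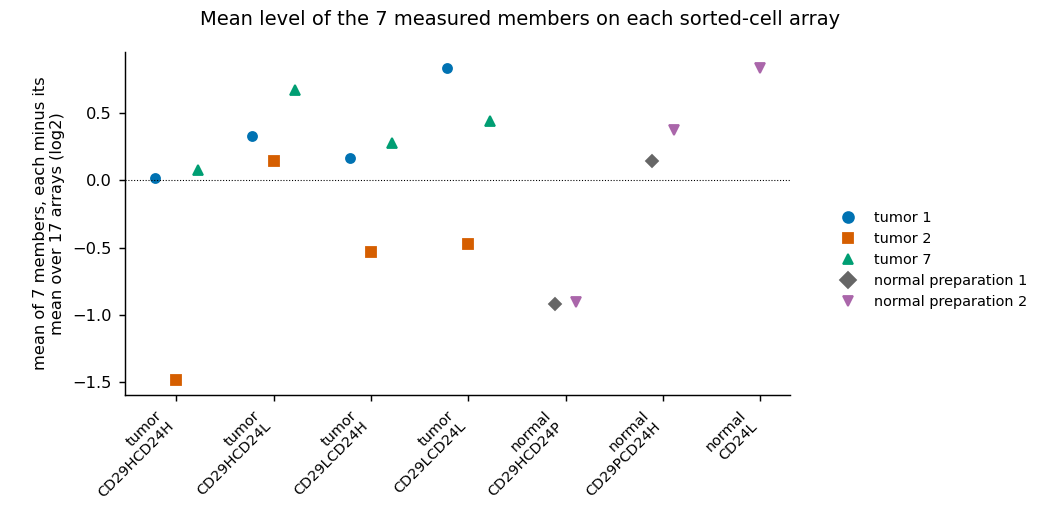
The vertical axis gives, for each of the 17 sorted-cell arrays, the mean over the 7 genes of the log2 level minus the gene's mean over the arrays, against the sorted population; symbols mark tumors 1, 2 and 7 and normal preparations 1 and 2. The lowest arrays are double high cells of tumor 2 (−1.48) and both normal CD29HCD24P arrays (−0.92 and −0.91), and the highest is the normal CD24L array (0.84).

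Outside the comparisons, 4 of the 7 genes (Ifit1, Ifit2, Ifit3 and Oasl2) were brighter on the CD24L array than on each of the other 4 normal arrays, as were 23.1% of all genes. On the reference RNA array 2 of the 7 (Ifit2 and Usp18) exceeded all 17 sorted-cell arrays, as did 15.2% of all genes.

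A few other pathway genes differed between double high cells and a single population. Against the rest, 34 of 38 other interferon-stimulated genes had negative differences with a median of −0.41, beside 49.6% of all genes negative. There 0 of 38 passed, where 0 of 10916 genes were called, so this absence is not particular to them. Against CD29LCD24H cells and against CD29LCD24L cells 0 of 38 passed, with or without the tumor as a block. Against CD29HCD24L cells 2 of 38 were lower, Ifi204 (−2.23 ± 0.46, adjusted p = 0.0229) and Lgals3bp (−1.90 ± 0.34, adjusted p = 0.0107). This stood beside 2.17% of all genes lower. With the tumor as a block 6 were lower, adding Ifitm1, Oas2, Parp14 and Trim30a, beside 4.62% of all genes. Xaf1 was higher, beside 0.311% of all genes, on a different probe set from that in the normal comparison. Of 10 receptor and signalling genes Ifnar2 was then lower (−1.11, adjusted p = 0.0305), and of 11 GTPases and chemokines Cxcl9 (−1.76, adjusted p = 0.0317). Against CD29LCD24L cells the negative regulator Samhd1 was lower with the block (−3.25, adjusted p = 0.0439), beside 0.412% of all genes. Its probe set here differed from that in the normal comparison. Ifnb1 did not exceed 97.2 on any tumor array, and Ifng reached 428 in CD29LCD24L cells but not more than 39.7 in the other tumor populations.

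Rsad2 had a higher mean in tumors than in normal epithelium, and no other member passed the test. The comparison used 1 mean per tumor (3) and per normal preparation (2, CD24L left out). The tumor means kept both CD24 low populations, and fibroblast genes summed to 182863 to 227086 in CD29HCD24L cells. The part of this imbalance was not tested. Rsad2 was 2.01 ± 0.28 higher in the tumors (adjusted p = 0.0115), a 4.03-fold difference. It was 1 of 7 genes called, where 7.65% of all genes were called. The median of the 7 was 0.02, between −0.19 and 0.03 under other processing, and 0.61 without tumor 2. After Rsad2, Ifit2 (0.97 ± 0.43, adjusted p = 0.199) came next in size. Over the arrays, tumor signals of Rsad2 ran from 1803 over a median of 5548 to 8694, and the 4 normal ones were 294, 308, 3448 and 5024. The ranges overlapped, since the normal CD29PCD24H values lay within the tumor range.

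The size of the difference depended on the probe set. The other 2 probe sets of Rsad2 gave 0.61 (adjusted p = 0.165) and 0.43 (adjusted p = 0.451), and the mean of the 3 gave 1.02 (adjusted p = 0.0552). Without normal preparation 1 or 2 the Rsad2 difference was 1.86 and 2.16, so its size stayed near the value with both. A fit with a lone normal preparation cannot judge whether Rsad2 passes, and the adjusted p above rests on both preparations. Without tumor 2, Ifit2 passed as well (1.39, adjusted p = 0.0376). Myeloid markers were higher in the tumors for 7 of 14 genes tested, including Csf1r (3.50) and C1qb (4.13). Fibroblast markers were higher for 9 of 11 genes, with a median of 2.89. Among all genes tested 4.3% were higher. The actin ratios of the tumor and normal arrays are given above. The part of these markers and ratios was not tested.

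The tumor and normal gates closest by label were compared in 1 fit of the 17 arrays, a choice made after the values were seen. Their labels differ, with CD24 high set against CD24 positive, and CD29 low against CD29 positive. Double high tumor cells exceeded normal CD29HCD24P cells in Rsad2 by 3.17 ± 0.46 (adjusted p = 0.000765), an 8.99-fold difference, and this was 1 of 7 genes called where 9.59% of all genes were called. All 3 tumor signals (2886, 1803 and 4978) lay above both normal ones (294 and 308), as for 24.9% of all genes. The other 2 probe sets differed by 0.79 and 0.54 and did not pass (adjusted p = 0.367 and 0.543). The difference remained past the threshold without each of the 5 arrays in turn, between 2.80 and 3.52. In this comparison 6 of 9 basal epithelial genes were lower in the tumor cells (median −4.22) and 3 of 9 luminal genes higher (median 1.64), so the gates held cells of different marker content. All 14 myeloid genes tested had positive differences (median 1.93, 1 called). Of 11 fibroblast genes 4 were higher and 2 lower, beside 4.79% and 4.8% of all genes. The actin ratio was 23.2 to 72.5 on the double high arrays and 3.08 to 7.09 on the normal CD29HCD24P arrays. The part of these markers and ratios in the Rsad2 difference was not tested. Of 39 other interferon-stimulated genes Trim30a, Herc6 and Xaf1 were higher and Lgals9, Ifitm2, Ly6e and Epsti1 lower, and Cxcl10 and Tlr3 were also higher. Xaf1 was read here on a different probe set from that in the normal comparison. Irf9 (−1.61 ± 0.40, adjusted p = 0.023) and Jak1 (−1.23 ± 0.33, adjusted p = 0.0293) were lower.

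Between CD29LCD24H tumor cells and normal CD29PCD24H cells none of the 7 passed, where 8.77% of all genes were called (at an unadjusted p below 0.05, 2 of 7 and 25.1% of all genes). Rsad2 differed by 0.26 ± 0.46 (adjusted p = 0.757), and Ifit1 was −2.26 ± 0.71 (adjusted p = 0.0626), with 360, 141 and 231 against 958 and 1542. Ifit1 passed when each array was shifted to a common median. Of 39 other interferon-stimulated genes 8 were lower in the tumor cells, Lgals9, Ifitm2, Ly6e, Nmi, Isg20, Epsti1, Tor3a and Trim21, as were Gbp2 (−3.44), Psmb10, Psme1 and Tap2.

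The gate difference of Rsad2 was larger in normal than in tumor cells, −3.65 against −0.75, and the difference between them was −2.90 ± 0.64 (adjusted p = 0.0252, with tumor or preparation as a block 0.00456). It was 1 of 7 genes called where 2.49% of all genes were called (10.3% with the block). This comparison, too, was chosen after the values were seen. The gate difference of the lineage markers was larger in normal cells too: normal minus tumor, it had a median of 6.62 over 9 basal genes (3 called, 9 with the block) and −2.45 over 9 luminal genes (1 called, 7 with the block). Their part in the Rsad2 difference was not tested. The other 2 Rsad2 probe sets gave −1.45 and −0.96 and did not pass (adjusted p = 0.470 and 0.731). Without each of the 10 arrays in turn the Rsad2 difference ran from −3.30 to −2.48. It did not pass without any of the 4 normal arrays (adjusted p = 0.0756 to 0.126), when the lone array is assumed to vary like the other groups, without the double high array of tumor 7 (0.0506) or with the mean of the 3 probe sets (−1.77, adjusted p = 0.115). Of 39 other interferon-stimulated genes Trim30a passed (−2.73 ± 0.59, adjusted p = 0.021), and with the block 6 were lower and 1 higher.

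Other pathway genes went both ways between tumors and normal epithelium. Of 39 other interferon-stimulated genes 3 were higher in the tumors, Ifi204, Ifitm1 and Oasl1 (1.56 ± 0.32, adjusted p = 0.0324), and 4 were lower, Lgals9, Ifitm2, Ly6e and Epsti1. Among all genes tested 4.3% were higher and 3.35% lower. Lgals9, which encodes galectin-9, read 76.0 to 199.7 on the tumor arrays and 445 to 1350 on the normal epithelial arrays (−2.40 ± 0.27, adjusted p = 0.00613). The chemokine gene Cxcl10 was higher (2.06) and Gbp2 lower (−1.57), and of 12 class I presentation genes Psme1 and Psmb10 were lower. Irf9, an interferon regulatory factor, did not pass over all populations (−1.28 ± 0.31, adjusted p = 0.0535), though it was lower in the double high comparison above.

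The members varied together in part. Over the 17 sorted-cell arrays 20 of the 21 pairs of genes correlated positively, with a median Pearson r of 0.30, and over the 12 tumor arrays 20 of 21 with a median of 0.53. Oasl2 and Usp18 were the closest pair in the tumors (r = 0.88), and Rsad2 and Usp18 the farthest (r = −0.01). The same counts were not made for other pairs of genes. Among the points is the double high array of tumor 2, on which all 7 genes were below their own means. The points share arrays, tumors and the scaling of each array, so these values are descriptions.

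The genes most like the mean of the 7, by Pearson r over the 17 arrays among 10909 other genes, were B2m (0.91), Rnf125, Cast, Rtp4 (0.86), Ahnak2, Sat1, Oas1a (0.84) and Mcc. B2m, the light chain of class I molecules, read 10147 to 11394 on the CD29HCD24P arrays and 18552 to 19420 on the CD29PCD24H arrays. Over the 12 tumor arrays the 8 closest were Cblb (0.92), Nme2, Zmiz1, Pdlim4, Rtp4 (0.91), Cast, Tusc1 and Usp32. Rtp4 and Cast were in both sets.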

How the data were processed

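The authors deposited a linear intensity for each probe set, made with GCOS (no version given) per the submitters' processing notes. Per the labels' protocols, total RNA was amplified in a T7 procedure of 2 cycles. The series' design text names a reference RNA for normalization, without saying how it was used. The mean after trimming 2% at each end was 500 on every array. Names came from the platform annotation: 1 symbol for 34945 probe sets, more than 1 for 932 and no symbol for 9160, besides 64 controls. Updating changed 0 symbols.

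Values were taken as log2(intensity + 32) with no further normalization. In each fit the probe set with the highest mean over its arrays stood for a gene, so this probe set could change between fits. Genes in the lowest 40% by mean level were dropped. All 10916 remaining genes were fitted with limma 3.58.1 (R 4.3.3; lmFit and eBayes, trend in intensity), with Benjamini-Hochberg adjustment and a threshold of 0.05. Tumor comparisons used 12 arrays and 4 group means, the normal one 5 arrays. The procedure was tested on simulated data. Plots used Python 3.11.15 and matplotlib 3.10.9.

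Members, gene lists and tests were chosen with earlier results of these data known. Named are every member, pathway genes called without the block and some called with it, part of the called markers, and the 8 genes most correlated with the mean of the members. Ifnar1, Ifnb1, Ifng and C1qa were named outside this rule, after their values were seen.

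Arrays of 1 tumor number come from the same tumor. After removing group means they correlated with r of 0.389 to 0.728 (18 pairs), against −0.669 to −0.0526 between tumors. Removing group means by itself lowers the correlations between tumors. The main fits had no block, and fits with the tumor as a replicate block were an alternative. For the normal preparations the correlation was 0.0552. No arrays were duplicates (highest correlation of 2 arrays 0.980). Alternatives were other offsets, normalizations and filters, means of probe sets, single probe sets, no trend, the block, 1 fit of 17 arrays, and leaving out arrays or tumors. Detection calls were not used.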

Additional observations from a re-analysis of the deposited data

Results flagged for a closer look

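The difference in Rsad2 between the gates was larger in normal than in tumor cells, in a comparison chosen after the values were seen. On 2 of its 3 probe sets the difference of the 2 differences was −1.45 and −0.96 and did not pass (limma, adjusted p = 0.470 and 0.731). On the brightest probe set it was −2.90 ± 0.64 on the log2(signal + 32) scale (limma, adjusted p = 0.0252). Over the 10 fits that left out 1 array it ran from −3.30 to −2.48, and 5 of them, 4 of which leave a normal population with 1 array, did not pass.

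The normal CD24L array was part of some fits but stood on neither side of any comparison. Of the members, 4 were brighter on it than on each of the other 4 normal arrays, which held for 23.1% of all genes tested. Ifit1 read 5789 on the CD24L array, above every other sorted-cell array as well. Ifit2 read 322.7, within the tumor range, and Ifit3 read 471.1 and Oasl2 706.2, both above all 12 tumor arrays. On that array 11 fibroblast genes summed to 289680 and 12 lymphocyte genes to 7592, against 600.4 to 1488 for the lymphocyte genes on the other normal arrays. The part of such cells was not tested. Ifng read 322 on the CD24L array and 0.685 to 9.97 on the other normal arrays.

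On the array of commercial reference RNA, Ifit2 read 745.7 and Usp18 1225, above all 17 sorted-cell arrays, as for 15.2% of all genes.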

How the results depend on the processing

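With 2 or 3 arrays per population, the number of arrays limits precision, and differences of genes near the array medians, such as Ifit3, depend on the offset. The median difference of double high cells from the rest was −0.90 with 1 as the offset, −0.27 with a 4-fold larger offset, −0.89 under the 60% filter, and −0.89 to −0.29 without 1 array or tumor. From CD29HCD24L cells it was −1.16 to −0.44 without 1 array or tumor. From CD29LCD24H cells it was −0.69 to 0.17 without 1 array or tumor, and 0.17 without the 2 tumor 2 arrays of low actin ratio. From CD29LCD24L cells it was −0.97 and −0.25 with the smaller and larger offset, −0.47 with quantile normalization, −0.47 with a median shift, −1.004 with 60% left out, −0.47 without the 2 arrays of low actin ratio and −0.92 to −0.34 without 1 array or tumor. In normal cells it was −1.27 and −0.77 with these offsets and −1.71 with 60% left out, when 4 members remained. The members called in normal cells numbered 1 with all 17 arrays in 1 fit and 3 to 6 without 1 array; in tumors against normal 0 with the mean of the probe sets and 0 to 2 without 1 tumor or preparation. For the difference between the gates the count was 0 with the mean of the probe sets and 0 to 1 without 1 array; in CD29LCD24H tumor against normal CD29PCD24H cells it was 1 with a median shift, when Ifit1 passed.

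Signs turned for small differences that did not pass in either setting. In double high cells against the rest, Ifit2 was 0.0060 with a median shift and 0.15 without the 2 arrays of low actin ratio, where Usp18 was 0.14; without 1 array or tumor Ifit2 ran from −0.43 to 0.28 and Usp18 from −0.79 to 0.39. In tumors against normal, Ifit3 was −0.0040 with an offset of 1, −0.14 with quantile normalization and −0.19 with a median shift, and Usp18 was −0.00037 and −0.24 with the last 2; without 1 tumor or preparation Usp18 ran from −0.50 to 0.61 and Ifit3 from −0.0030 to 0.14. In normal cells Irf7 ran from −0.52 to 0.0069 without 1 array. In CD29LCD24H tumor against normal CD29PCD24H cells Rsad2 was −0.13 with a median shift, −0.27 with the mean of the probe sets and −0.13 to 0.68 without 1 array. The causes were not tested. With the replicate block, 0 members passed in the 4 tumor comparisons, 6 in the normal one and 1 in the difference between the gates, the same counts as without it.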
